A study of Mus musculus with 12 samples.

Results

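The genes described here encode 2 groups of plasma proteins made by hepatocytes, the alpha-macroglobulins (A2m, Pzp, Mug1 and Mug2) and the inter-alpha-inhibitors (the heavy chain genes Itih1, Itih2, Itih3 and Itih4, and Ambp). They were taken by symbol from a table of 38087 genes, and all 9 symbols were found. A2m was selected on its log2 fold change between GH and PBS in these same libraries, so its change is described and not tested, and the other members were added as its family and as partners of like function. The data were total RNA libraries, depleted of ribosomal RNA, from livers of germ-free male C57BL/6j mice aged 13 to 16 weeks. Germ-free mice carry no microorganisms. The GH group (n = 6) was given 50 µg of recombinant human growth hormone per mouse under the skin, and the PBS group (n = 6) was given saline. Each mouse was injected over 5 days, with 2 injections daily at zeitgeber times (hours after lights on) 2 and 14, and its liver was collected at zeitgeber time 2. Both groups were germ-free, and the labels do not say more about how samples were drawn, so p-values reflect only how far these samples spread, which may be technical.

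Alpha-macroglobulins are large plasma proteins that trap proteases. A protease cuts an exposed bait region, the inhibitor folds around it, and a reactive thioester bond can attach the captured enzyme. The complex is then cleared by the receptor LRP1. In the rat, A2m is a classical acute phase gene of the liver driven by interleukin-6 and STAT3. In the mouse, Pzp encodes the abundant tetrameric macroglobulin of plasma, and the murinoglobulin genes Mug1 and Mug2 encode single-chain relatives. Inter-alpha-inhibitors are built differently. Ambp encodes a precursor that is cleaved into the lipocalin alpha-1-microglobulin and bikunin, a Kunitz-type protease inhibitor with a chondroitin sulfate chain. Heavy chains 1, 2 and 3 are joined to that chain and can be moved from it to hyaluronan, which they stabilise in extracellular matrix. ITIH4 belongs to the same family but is not joined to bikunin.

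The murinoglobulin genes are near copies, and reads could therefore be divided between them, so the thioester region of each macroglobulin coding sequence is shown to make the degree of likeness visible. The 15 bases in capitals are the codons of the thioester site, found once in each gene, with 45 coding bases before and after, from the GENCODE M21 transcripts.
A2m: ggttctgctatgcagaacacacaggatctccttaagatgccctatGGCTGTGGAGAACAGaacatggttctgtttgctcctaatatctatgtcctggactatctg
Pzp: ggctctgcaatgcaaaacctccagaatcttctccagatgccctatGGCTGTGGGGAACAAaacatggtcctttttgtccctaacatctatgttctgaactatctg
Mug1: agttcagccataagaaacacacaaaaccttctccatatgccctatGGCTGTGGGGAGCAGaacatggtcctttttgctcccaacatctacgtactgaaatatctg
Mug2: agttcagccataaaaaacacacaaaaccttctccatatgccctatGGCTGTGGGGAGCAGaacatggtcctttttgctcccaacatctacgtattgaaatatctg

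Over the whole coding sequence Mug1 and Mug2 were identical at 95.13% of aligned bases. A2m was identical to Mug1 at 69.77%, to Mug2 at 69.29% and to Pzp at 66.09%. Pzp was identical to Mug1 at 64.68% and to Mug2 at 64.62%. Pairs of heavy chain genes ran from 58.46% (Itih1 and Itih2) to 65.28% (Itih1 and Itih3). Of the windows of 125 bases, the length of 1 read, in the longest coding transcript, none in A2m, Pzp, Ambp or the 4 heavy chain genes occurred in a transcript of another gene, and the same held for windows of 50 bases. For Mug1 3.75% of such windows did, and for Mug2 22.7%, of which 929 of 1011 matched the pseudogene Mug-ps1 and 97 matched Mug1. With windows of 50 bases the shares were 32.9% for Mug1 and 50.5% for Mug2. Counts of Mug1 and Mug2 are therefore less certain than those of the other members. The sources used here do not state how reads with several matches were counted.

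A2m, Mug1 and Mug2 lie in a row on the plus strand of chromosome 6 (mm10, GENCODE M21 spans with introns), A2m at 121635376 to 121679227, Mug1 at 121838541 to 121889057 and Mug2 at 122006761 to 122085965. Pzp lies farther along the same chromosome, on the minus strand, at 128483567 to 128526720. Itih4 (30886476 to 30902353, plus strand), Itih3 (30908572 to 30923760, minus) and Itih1 (30929180 to 30943289, minus) form a cluster on chromosome 14. Itih2 is on chromosome 2 (10094593 to 10131396, minus) and Ambp on chromosome 4 (63143275 to 63154799, minus). No member shared exonic bases with another gene on its own strand. Pzp shared 303 exonic bases with Gm10069 on the opposite strand, and that gene had 0 to 9 counts in a library.

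Libraries held from 19523104 to 23278931 counts, and no 2 libraries of a group agreed to within counting noise (chi-square over its degrees of freedom at least 8.95). Of 14235 genes tested, 682 (4.79%) passed a Benjamini-Hochberg adjusted p under 0.05 in edgeR's quasi-likelihood test. Values are counts-per-million (CPM) scaled by TMM, and a positive log2 fold change means a higher level in GH. The 6 hepatocyte markers summed to 105516 to 120828 CPM in PBS and to 89875 to 114026 CPM in GH, and none passed the test. The lowest sum of the 12 libraries, 89875 CPM, was that of GH replicate 6. Marker lists of Kupffer cells, sinusoidal endothelium and cholangiocytes held no gene that passed. Of 5 neutrophil markers 1 was tested and did not pass, and none of the 5 lymphocyte markers had enough counts to be tested. Of the other lists, 3 erythroid markers were tested, and 1 of them passed. It was Alas2, which encodes the haem enzyme of red cell precursors, and it was higher in GH (list sum 59.0 to 191 CPM in PBS and 174 to 270 CPM in GH). Of 6 stellate cell and fibroblast markers tested, 1 was called lower in GH and none higher. This was the fibroblast gene Dcn (list sum 355 to 411 and 325 to 392 CPM). Col1a1 of the same list had a log2 fold change of 0.45 and did not pass (edgeR adjusted p = 0.253). Of 5 exocrine pancreas markers, Pnlip and Ctrb1 were at 0 in every library, and the 1 that was tested did not pass. The list as a whole was not absent, with a lowest sum of 16.0 CPM in PBS and 9.10 CPM in GH. In bulk tissue a lower cell number and less RNA per cell cannot be told apart, and the part of these markers in the results was not tested. The library of GH replicate 6 stood apart for Itih2, Itih3 and Itih4.

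All 9 members passed the filter on low counts, A2m through its GH libraries. Together they took 2.23 ± 0.138% of all counts in the PBS libraries and 2.69 ± 0.194% in the GH libraries (mean ± SD, n = 6). The PBS libraries ran from 2.04 to 2.44% and the GH libraries from 2.46 to 2.97%, with no overlap. The highest was GH replicate 6, and without it the GH value was 2.63 ± 0.151% (n = 5). Most of this was macroglobulin, 1.42 ± 0.105% in PBS and 1.81 ± 0.119% in GH. The heavy chains took 0.617 ± 0.0507% and 0.657 ± 0.146%, and 0.598 ± 0.0337% in GH without GH replicate 6 (n = 5).

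Levels of different genes were compared per kilobase of annotated exon. In PBS the order was Ambp (1349 ± 79.6 CPM per kb), Mug1 (1133 ± 136), Pzp (892 ± 96.1), Itih4 (636 ± 44.2), Itih2 (429 ± 60.5), Itih3 (412 ± 56.1), Mug2 (367 ± 53.6) and Itih1 (236 ± 14.6). A2m came last at 0.0304 ± 0.0250 CPM per kb. Ambp exceeded Mug1 in 6 of 6 PBS libraries although the ranges overlapped, and Mug1 exceeded Pzp in 5 of 6. Itih2 and Itih3 did not differ beyond their spread, with Itih2 higher in 3 of 6 libraries, and the ranges of Itih3 and Mug2 overlapped, with Itih3 higher in 5 of 6. The gaps between Pzp and Itih4, Itih4 and Itih2, Mug2 and Itih1, and Itih1 and A2m had no overlap. In GH the order of the upper 4 was the same by their means, Itih2 came below Itih3 and Mug2, and A2m stayed last at 1.12 ± 0.309 CPM per kb. The order of Ambp and Mug1 depended on the length used, here 1409 and 5770 bases of exon. With the longest transcript instead (1268 and 4657 bases), Mug1 lay above Ambp in the GH mean and in PBS replicate 2.

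**Figure D1:**
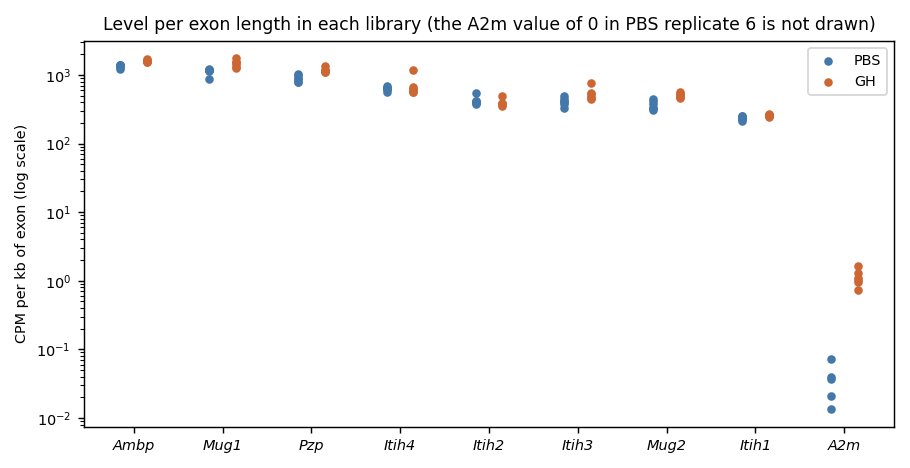
CPM per kilobase of annotated exon (log scale) of each gene in each library, with genes ordered by their PBS mean. Points are single libraries, 6 per group; A2m lies far below the other 8 genes in both groups.

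A2m was nearly silent in PBS and present in every GH library. Its raw counts in PBS replicates 1 to 6 were 6, 2, 3, 10, 6 and 0, and in GH replicates 1 to 6 they were 173, 143, 106, 149, 160 and 261. In CPM the PBS libraries had a lowest value of 0, a median of 0.202 and a highest of 0.502, and the GH libraries 5.16, 7.35 and 11.5. The lowest GH library was above the highest PBS library, and the count of 0 in PBS replicate 6 allows a level of up to 0.128 CPM (3 counts, covering counting error only). The means were 0.213 ± 0.176 and 7.87 ± 2.17 CPM (SD, n = 6), a ratio of 36.9. Without GH replicate 6, the highest library, the GH mean was 7.15 ± 1.41 CPM. The fitted log2 fold change was 5.20, and it ran from 4.92 without PBS replicate 6 to 5.62 without PBS replicate 4.

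Even after this rise A2m was a trace transcript among its relatives. It made up 0.00155 ± 0.00129% of the macroglobulin counts in PBS and 0.0426 ± 0.0118% in GH. By library this share was between 0 and 0.00360% in PBS and between 0.0306 and 0.0629% in GH. Without GH replicate 6, the highest, the GH share was 0.0386 ± 0.00701% (n = 5), with a highest value of 0.0491%. The exact 95% Clopper-Pearson interval in PBS replicate 6 was 0 to 0.00120%, and in GH replicate 6 it was 0.0555 to 0.0711% (counting error only). In CPM, without regard to length, A2m ranked last (14235) among the genes tested in PBS and 8270 in GH. Mug1 ranked 18 in PBS and 11 in GH, and Pzp 22 and 16. These ranks leave out genes that failed the filter on low counts. A2m passed that filter through its GH libraries, so the filter itself favours a low PBS rank for it.

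The abundant macroglobulins were higher in GH by less than 1.5-fold. Of the 8 members other than A2m, 4 rose and none fell, where 2.27% of all genes tested were higher at this threshold and 2.52% lower. The 4 were Pzp, Mug1, Mug2 and Ambp, and their groups did not overlap, as in 3.18% of all genes (1.45% with GH higher and 1.72% with GH lower). The median log2 fold change of the 8 was 0.32, beside 0.00 for all genes tested. At an unadjusted p under 0.05, 5 of the 8 passed, against 2702 of the 14235. DESeq2 and limma-voom also called 4 of the 8, all of them higher in DESeq2. The members were chosen with earlier results of these data known, so these shares describe the 8 and do not measure an enrichment.

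Pzp, the main tetrameric macroglobulin, had a lowest, median and highest value of 5060, 5648 and 6559 CPM in PBS and of 7077, 7534 and 8586 CPM in GH. Every GH library exceeded every PBS library. The log2 fold change was 0.41 ± 0.08 (SE, n = 6; edgeR adjusted p = 0.00922). Without GH replicate 6 it was 0.37 (adjusted p = 0.0114), and its adjusted p stayed under the threshold whichever of the 12 libraries was omitted (highest 0.0260).

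Mug2, the less abundant murinoglobulin gene, had 1409, 1614 and 2028 CPM in PBS and 2136, 2321 and 2594 CPM in GH. The groups were again apart. It rose by 0.47 ± 0.09 (SE, n = 6; edgeR adjusted p = 0.00862), and it too passed whichever library was omitted (highest adjusted p 0.0274).

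Mug1, the more abundant copy, had 4962, 6841 and 7048 CPM in PBS and 7203, 8618 and 10107 CPM in GH. The groups were separated by a narrow margin, and PBS replicate 5 lay far below the other PBS libraries, whose lowest was 6598 CPM. Mug1 rose by 0.38 ± 0.10 (SE, n = 6; edgeR adjusted p = 0.0378), or by 0.31 without PBS replicate 5. Omitting any 1 of 8 libraries (PBS replicates 1, 3, 4 and 6, GH replicates 1, 2, 4 and 5) ended the call, with an adjusted p of up to 0.103 when GH replicate 2 was omitted, as did scaling by library totals (adjusted p = 0.0717) and a fit with the replicate number as a block (0.0929).

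Gm10319, which lies 50663 bases beyond Mug2 and shares some windows with both murinoglobulin genes, had 81.5 ± 14.7 CPM in PBS and 91.5 ± 26.4 CPM in GH (adjusted p = 0.716). GH replicate 6 was its lowest library at 48.0 CPM. On the other side of A2m the transporter genes Slc6a12 and Slc6a13 had log2 fold changes of -0.08 and -0.07 (adjusted p = 0.682 and 0.643). Next to Pzp the macroglobulin-like gene BC048546, 13101 bases away and annotated as A2ml1, had 3.32 ± 1.03 CPM in PBS and 4.76 ± 1.15 CPM in GH (adjusted p = 0.173). Fkbp4, on the other side of Pzp, stood at a log2 fold change of 0.01 (adjusted p = 0.981). Of these flanking genes that are not members, none passed the test.

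**Figure D2:**
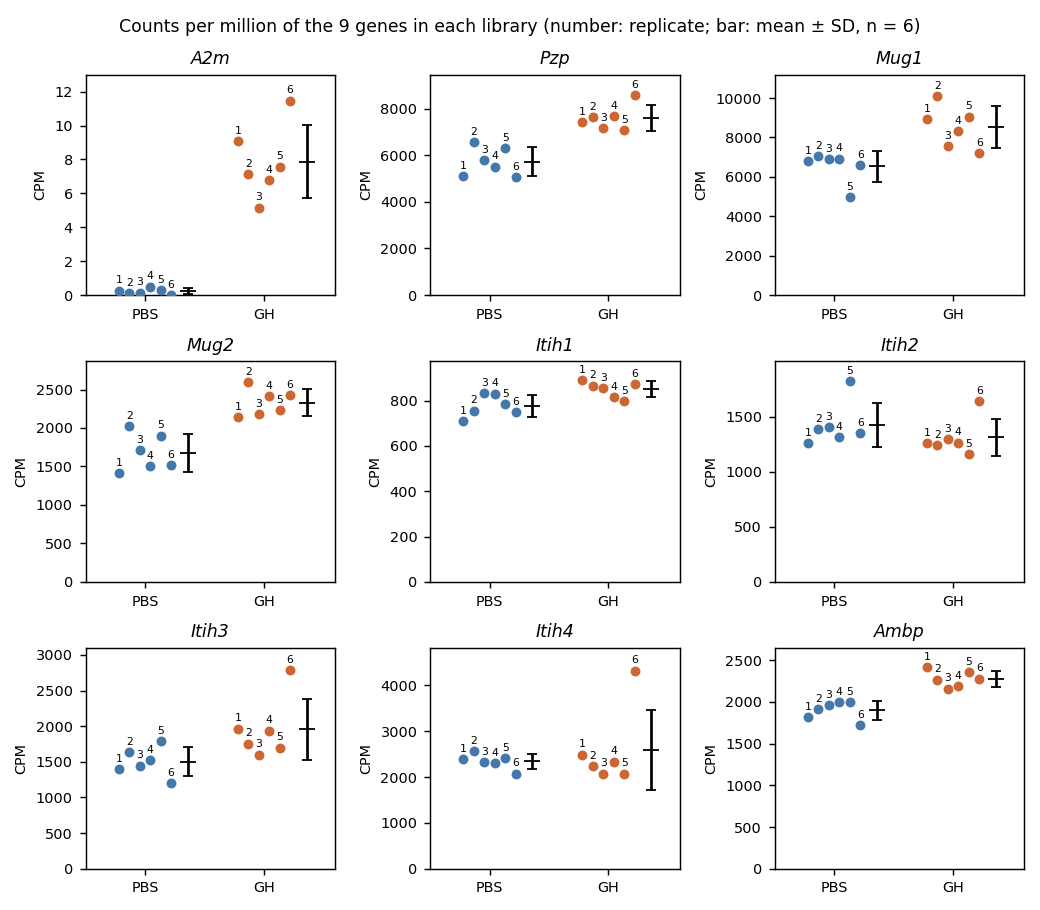
CPM of each of the 9 genes in each library, on linear axes that start at 0. Points are libraries marked with their replicate number, and black bars are the mean ± SD of 6; A2m, Pzp, Mug1, Mug2 and Ambp have no overlap between groups, and GH replicate 6 stands high for Itih2, Itih3 and Itih4.

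Ambp, the source of alpha-1-microglobulin and bikunin, had 1719, 1936 and 2001 CPM in PBS and 2159, 2274 and 2413 CPM in GH. The groups did not overlap, and its spread was small in both (coefficient of variation 5.90% and 4.25%). Its log2 fold change was 0.26 ± 0.07, a rise in the edgeR test (SE, n = 6; adjusted p = 0.0296). The fold change stayed between 0.23 and 0.28 with 1 library left out, while omitting any 1 of 7 libraries (PBS replicates 1, 3 and 6, GH replicates 1, 2, 4 and 5) ended the call, with an adjusted p of up to 0.0783 when GH replicate 1 was omitted. Scaling by library totals (0.20, adjusted p = 0.0776) and the replicate block (adjusted p = 0.107) ended it as well.

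None of the heavy chain genes passed the test, and all 4 had overlapping groups. Itih1 was the steadiest, at 711, 770 and 832 CPM in PBS and 798, 860 and 892 CPM in GH (log2 fold change 0.13 ± 0.07, SE, n = 6; edgeR adjusted p = 0.297). Itih2 was the member with a negative value, at 1422 ± 201 CPM in PBS and 1310 ± 168 CPM in GH (log2 fold change -0.12, adjusted p = 0.576). In each group 1 library lay far above the others for Itih2, PBS replicate 5 at 1818 CPM and GH replicate 6 at 1641 CPM. Without GH replicate 6 the log2 fold change was -0.19 (adjusted p = 0.245).

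Itih3 had 1203, 1483 and 1794 CPM in PBS and 1600, 1846 and 2785 CPM in GH. The highest value was GH replicate 6, and the next GH library was at 1965 CPM. Its log2 fold change was 0.38 ± 0.13 (SE, n = 6; edgeR adjusted p = 0.103), as large as that of Mug1 but with more spread. It was 0.26 without GH replicate 6 (adjusted p = 0.144), and 0.31 with an adjusted p of 0.0362 when PBS replicate 5 was left out as well.

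Itih4, which is listed among acute phase genes, depended on 1 library for its direction. It had 2075, 2359 and 2571 CPM in PBS and 2076, 2288 and 4323 CPM in GH, where 4323 was GH replicate 6 and the next library was at 2492. The log2 fold change was 0.14 ± 0.16 (SE, n = 6; edgeR adjusted p = 0.684), and omitting GH replicate 6 turned it to -0.065 (adjusted p = 0.692). The GH mean was 2591 ± 864 CPM with that library and 2244 ± 178 CPM without it (n = 5).

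**Figure D3:**
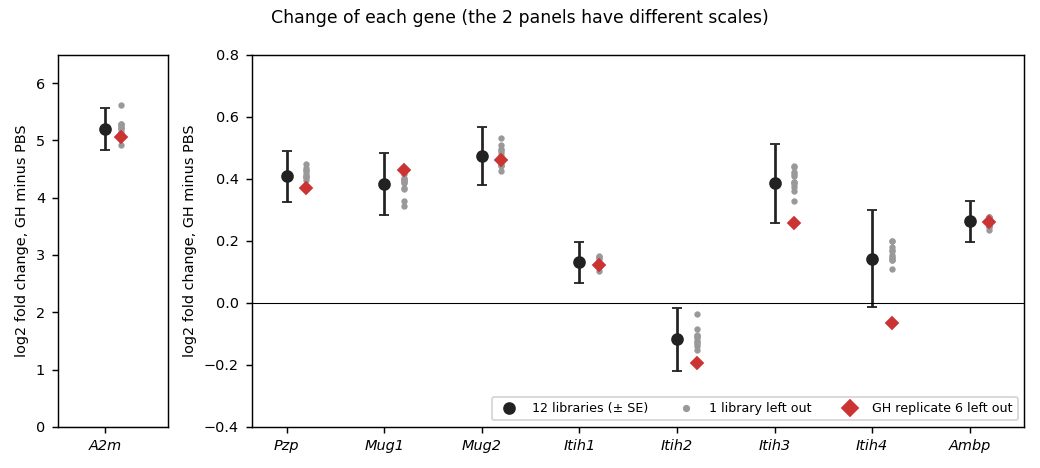
Log2 fold change of GH over PBS for each gene, with A2m on its own axis. Black points are the fits on 12 libraries with their SE, grey points the fits with 1 library left out, and red diamonds those without GH replicate 6; the diamond of Itih4 lies below 0 at -0.065.

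Ratios between the heavy chains, taken per kilobase within each library, described their proportions free of scaling. Itih4 over Itih3 was 1.56 ± 0.140 in PBS (1.33 to 1.70) and 1.29 ± 0.125 in GH (1.19 to 1.53). Without GH replicate 6, whose ratio was the highest of its group, the GH value was 1.24 ± 0.0378 and lay below every PBS library. Itih2 over Itih1 was 1.82 ± 0.254 in PBS (1.57 to 2.30) and 1.53 ± 0.173 in GH (1.40 to 1.87). Without GH replicate 6 it was 1.46 ± 0.0551 with a highest value of 1.54, again below every PBS library. Itih3 over Itih1 was 1.46 to 2.07 in PBS and 1.70 to 2.89 in GH, or 1.70 to 2.15 without GH replicate 6, and the groups overlapped either way. Itih4 over Itih1 was 2.48 to 3.04 in PBS and 2.17 to 4.42 in GH, or 2.17 to 2.55 without that library, and again the groups overlapped. Ambp over Itih1 was 5.72 ± 0.259 in PBS and 6.27 ± 0.347 in GH, and these overlapped. These ratios are given without a test.

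Within the groups, members varied together to different degrees. As a description, log2 CPM deviations from the group mean were correlated over the 12 libraries (prior count 0.5). All points of a pair come from the same libraries and share their scaling. Pairs of other genes were not taken as a background, so it was not tested whether the members differ from them. Over the 36 pairs, those of A2m included, Pearson's r ran from -0.83 to 0.89 with a median of 0.32, and 28 were above 0. The highest value was that of the neighbours Itih3 and Itih4 (r = 0.89, Spearman's rho = 0.86), and it was 0.91 without GH replicate 6 and PBS replicate 5.

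Pzp followed Mug2 (r = 0.86, rho = 0.84; 0.90 without those libraries), which lies several megabases away. Genes outside the members reached like values with Pzp within the groups, among them Mapk9 (r = 0.90) and Acadsb (0.88). Both were picked for their closeness to Pzp over the 12 libraries. The ratio of Pzp to Mug2 per kilobase was 2.45 ± 0.124 in PBS and 2.33 ± 0.154 in GH. Mug1 did not follow its near copy Mug2 (r = -0.14, rho = 0.03), and without GH replicate 6 and PBS replicate 5 the value was 0.41. Mug1 over Mug2 varied more, 3.16 ± 0.650 in PBS (2.07 to 3.83) and 2.91 ± 0.362 in GH. The lowest r, that of Mug1 and Itih2 (-0.83), rested on GH replicate 6 and PBS replicate 5, and it was -0.28 without them. Deviations of A2m within PBS come from 0 to 10 counts, and that of the library at 0 is set by the prior count. Its pairs are therefore not described singly, though the median and counts over all pairs above hold them.

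**Figure D4:**
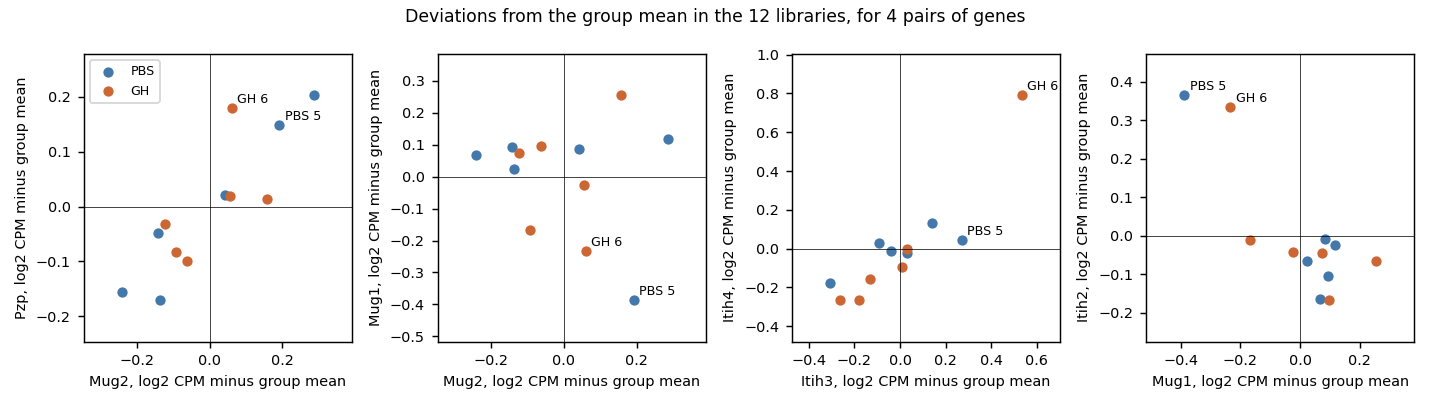
Deviations of log2 CPM from the group mean for 4 pairs of genes, 1 point per library. Mug2 and Pzp rise together (r = 0.86), Mug2 and Mug1 do not (r = -0.14), and GH replicate 6 and PBS replicate 5 are the outlying points for Mug1 and Itih2.

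The promoters of Pzp, Mug1, Mug2 and Itih4 are shown because Mug1 and Mug2 differ in their variation and Itih4 had the most divergent library. Each is the strand of transcription, 250 bases before to 50 after the RefSeq start (GRCm38.p6), and 8 of the 9 members had one in the table used, A2m being the exception. Capitals mark matches on either strand to TTCNNNGAA (the core bound by STAT factors), TTGCNNAA (a C/EBP-type core), GTTAAT (a half-site of HNF1), CAAAGTCCA (an HNF4-type core) or TATAAA.
Pzp, chr6:128526671-128526970, minus strand: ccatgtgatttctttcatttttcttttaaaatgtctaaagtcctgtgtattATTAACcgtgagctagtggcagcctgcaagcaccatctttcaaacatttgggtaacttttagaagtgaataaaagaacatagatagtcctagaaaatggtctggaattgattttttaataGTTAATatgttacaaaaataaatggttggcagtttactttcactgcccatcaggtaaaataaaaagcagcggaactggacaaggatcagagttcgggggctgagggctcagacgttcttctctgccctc
Mug1, chr6:121838291-121838590, plus strand: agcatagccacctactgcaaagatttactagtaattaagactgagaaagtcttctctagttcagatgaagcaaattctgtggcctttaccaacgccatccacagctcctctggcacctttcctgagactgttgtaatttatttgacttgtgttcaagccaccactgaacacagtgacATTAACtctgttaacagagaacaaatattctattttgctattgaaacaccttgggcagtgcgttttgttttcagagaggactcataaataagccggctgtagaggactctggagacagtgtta
Mug2, chr6:122006548-122006847, plus strand: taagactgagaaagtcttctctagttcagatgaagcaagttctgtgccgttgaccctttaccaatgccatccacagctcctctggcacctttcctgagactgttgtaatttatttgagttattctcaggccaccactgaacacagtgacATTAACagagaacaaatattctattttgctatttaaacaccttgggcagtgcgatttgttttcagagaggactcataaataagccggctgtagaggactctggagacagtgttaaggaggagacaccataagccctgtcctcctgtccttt
Itih4, chr14:30886226-30886525, plus strand: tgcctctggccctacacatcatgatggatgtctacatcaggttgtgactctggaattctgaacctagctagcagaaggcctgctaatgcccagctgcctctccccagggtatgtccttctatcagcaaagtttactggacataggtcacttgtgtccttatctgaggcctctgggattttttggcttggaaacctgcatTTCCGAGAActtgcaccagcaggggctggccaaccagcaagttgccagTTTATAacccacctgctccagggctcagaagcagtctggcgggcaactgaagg

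The Mug1 and Mug2 windows were identical at 96.1% of aligned bases. Of the 8 member promoters, GTTAAT was present in 4 (Pzp, Mug1, Mug2 and Itih1), beside 7.10% of 32851 promoters of the same length. TTCNNNGAA was present in Itih4 alone, beside 8.30% of promoters. TTGCNNAA was present in Itih2 alone (10.8% of promoters) and TATAAA in Itih3 and Itih4 (13.6%), while CAAAGTCCA (0.475%) was found in none of the 8. These are matches of letters in a short window and nothing more.

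Genes whose log2 CPM over the 12 libraries was closest to that of A2m, members aside, were sought among those with a mean of at least 1 CPM. They were Saa1 (r = 0.97), Orm1 (0.95), Qsox1 (0.95), Saa2 (0.94) and Ugt2b38 (0.94). In GH, Saa1 (1128 ± 948 CPM) and Saa2 (759 ± 1159 CPM) were very uneven between libraries. Orm1 (986 ± 69.1), Qsox1 (463 ± 27.1) and Ugt2b38 (21.9 ± 4.44) varied less. Saa1, Saa2 and Orm1 encode acute phase plasma proteins. Counts of the Saa genes may be uncertain because their sequences are alike, which was not examined here. These values contain the difference between groups, and they rest in PBS on the few counts of A2m, so they do not show that the genes vary together within a group. Closest to Ambp were the complement genes C9 (0.96) and C8b (0.95) and the glutathione transferase gene Gstp1 (0.95). The kinase gene Mapk9 (0.96 for Pzp, 0.94 for Mug2) and the complement gene C8a (0.95 and 0.93) were nearest to both Pzp and Mug2, followed by Acadsb (0.94) for Pzp and Gpr155 (0.93) for Mug2. Those nearest to Mug1 were Enpp5 (0.96), Cyp2d9 (0.92) and Grb14 (0.92), with no name shared with Mug2. For these 4 members too the values contain the difference between groups and are the highest of all genes searched. Within the groups they were lower, from 0.73 (C8b with Ambp) to 0.90 (Enpp5 with Mug1).

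Relatives were followed in a list of macroglobulin and thioester proteins, of which 6 were tested; the list also holds Clu, the chaperone clusterin, which is neither. Of the 6, 2 rose and none fell (median log2 fold change 0.45), beside 2.27% of all genes tested higher and 2.52% lower. DESeq2 called 3 higher. The lists were chosen with earlier results of these data known, so such counts do not measure an enrichment. Hc, which encodes complement C5, went from 1369 ± 199 to 2126 ± 111 CPM (adjusted p = 0.000924), and C4b, complement C4, from 1161 ± 116 to 1505 ± 219 CPM (adjusted p = 0.0340). Omitting any 1 of 6 libraries (PBS replicates 3, 4 and 6, GH replicates 2, 4 and 5) ended the call of C4b (adjusted p up to 0.0817), as did scaling by library totals (0.0701) and the replicate block (0.131). C3, the most abundant of them, had 8860 ± 1515 CPM in PBS and 8403 ± 1705 CPM in GH (adjusted p = 0.808). Of the other heavy chain genes, the 1 tested was Itih5, which lies 22175 bases from Itih2 and is expressed at a low level. It rose from 11.2 ± 1.40 to 16.4 ± 2.13 CPM (adjusted p = 0.00594) and its groups did not overlap, as in 3.18% of all genes tested (1.45% with GH higher).

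Among 6 genes for receptors and chaperones that bind macroglobulins, 1 rose and 1 fell (median 0.20), beside 2.27% of all genes tested higher and 2.52% lower. DESeq2 called 2 higher and 1 lower. Lrp1, the clearance receptor, had 607 CPM in PBS and 708 CPM in GH (adjusted p = 0.492). Lrp2, which encodes the related receptor megalin, rose from 1.18 ± 0.623 to 3.61 ± 1.66 CPM (adjusted p = 0.0222), and Hspa5, the ER chaperone BiP, fell from 936 ± 230 to 592 ± 76.6 CPM (adjusted p = 0.0193). Both had overlapping groups, and the call of Lrp2 was lost when PBS replicate 6 was omitted (adjusted p = 0.0570) and with no filter on low counts (0.0731). That of Hspa5 was lost with no filter (adjusted p = 0.0709) and when GH replicate 6 and PBS replicate 5 were both omitted (0.0572).

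Of 11 tested hyaluronan genes none rose and 1 fell (median -0.02), beside 2.27% of all genes tested higher and 2.52% lower. This was Hyal1, a hyaluronidase, from 54.6 ± 3.78 to 43.2 ± 2.96 CPM (adjusted p = 0.00712). Tnfaip6, which encodes TSG-6, the protein that moves heavy chains to hyaluronan, and the synthase genes Has1, Has2 and Has3 did not pass the filter on low counts. Of 13 genes of chondroitin sulfate synthesis, 6 of Kunitz-type inhibitors and 6 of proprotein convertases, none passed in edgeR in either direction. The medians were 0.02, -0.06 and 0.08. Among all genes tested 4.79% passed, a share at which lists this short can hold none. At an unadjusted p under 0.05 there were 3, 2 and 2 genes of these lists. For the same lists limma-voom called none, and DESeq2 called 2 of the Kunitz-type genes, 1 higher and 1 lower. Of 18 tested genes of interleukin-6 and STAT3 signalling none passed in edgeR, DESeq2 or limma-voom (median 0.06). At the share of 4.79% in edgeR, 18 genes can hold no call. In edgeR 1 of the 18 had an unadjusted p under 0.05. Il6 itself did not pass the filter on low counts. The log2 fold change of Stat3 was 0.07 (edgeR adjusted p = 0.807), that of Il6st, the shared signal receptor, -0.09 (0.555), and that of Cebpb -0.07 (0.872). Socs3, a feedback gene of STAT3, was at -0.47 ± 0.68 (SE, adjusted p = 0.774). It varied widely, with 8.89 ± 6.69 CPM in PBS and 6.40 ± 6.13 CPM in GH. Whether this pathway took part in the change of A2m was not tested.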

How the data were processed

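The submitters' processing notes name STAR 2.4.0i and mm10; the sources used here do not state the counting program or its settings. The authors deposited raw counts of exonic reads per gene, without normalization, for 12 libraries (6 per group) made with a stranded kit per the labels' protocols. The analysis used edgeR 4.0.16 (R 4.3.3): filterByExpr (minimum count 10; 14235 genes kept), TMM scaling and a robust quasi-likelihood F test of group, two-sided, adjusted over all genes, threshold 0.05. SE is the absolute log2 fold change over the square root of F. Of the identifiers 36308 matched GENCODE M21, which gave spans and exon lengths. DESeq2 1.42.0 and limma 3.58.1 served as alternatives, and the fit was tested on simulated data. Coding sequences are the longest open reading frames, aligned with Biopython 1.88. Named genes were all members, listed genes past the threshold with at most 4 others of a central role, the nearest patterns (5 for A2m, 3 for each other changed member) and flanking genes. Members and lists were chosen with earlier results of these data known.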

Additional observations from a re-analysis of the deposited data

Results flagged for a closer look

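In 5 of the 18 combinations of a member and a group, 1 library lay far from the other 5, with a gap above Dixon's 95% critical value for the group's range; chance flags about 1 in 20. GH replicate 6 was the high library for Itih4 (4323 CPM, next 2492), Itih3 (2785 CPM, next 1965) and Itih2 (1641 CPM, next 1292). PBS replicate 5 was high for Itih2 (1818 CPM, next 1403) and low for Mug1 (4962 CPM, next 6598).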

How the results depend on the processing

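Pzp and Mug2 kept their direction and their call in all 20 alternatives run, with log2 fold changes from 0.35 to 0.45 and from 0.41 to 0.53, and A2m ran from 4.92 to 5.62. Mug1 lost its call in 10 of 20 and Ambp in 9 of 20, which left 2 called members under scaling by library totals and with a replicate block, and from 2 to 4 with 1 library left out; the number lower stayed at 0 in all. Itih4 ran from -0.065 to 0.20 with 1 library left out, below 0 only where GH replicate 6 was omitted, and was -0.060 when PBS replicate 5 was omitted with it. Same-numbered libraries of the groups had correlations of deviations from -0.20 to 0.19, and 1 of 12 libraries correlated best with its own number. These values showed no pairing by number but cannot exclude one, and the labels do not say how the numbers were given. The replicate block gave 180 genes higher and 211 lower. Beside 323 higher and 359 lower genes, library totals gave 211 and 658 (a shift of -0.06 in the median of all genes), DESeq2 506 and 566, and leaving out GH replicate 6 and PBS replicate 5 518 higher; the cause was not tested. With 1 library left out the counts were 193 to 410 higher and 241 to 444 lower. Over both groups, the longest transcript in place of all exons moved the CPM per kb from 0.575 to 0.877 (A2m), 1038 to 1423 (Pzp), 1305 to 1617 (Mug1), 247 to 264 (Itih1) and 1483 to 1648 (Ambp), by the construction of the length. The median r between members, pairs of A2m included, was 0.23 to 0.40 with 1 library left out.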
